A study of Mus musculus with 8 samples.

Results

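Cav1, Cav2, Tln1, Tes, Tpm2, Capza2 and Wasl, 7 genes of caveolae, cell adhesion and the actin cytoskeleton, were read by symbol from the liver count table of mice with altered Sost. They are 7 of 55416 rows. They lie on chromosomes 4 and 6, on stretches kept as places where row names and counts belong together, less firmly around Tln1, Tpm2 and Wasl. All 7 passed the filter on low counts. Livers of 8 mice were sequenced as poly-A RNA, 1 library per mouse, in 2 groups of 4 biological replicates, Sost-/- and SostPB/-, both fed the MCD diet. This diet, in its usual sense, lacks methionine and choline and brings on steatohepatitis. Sclerostin, the product of Sost, is secreted and blocks Wnt receptors, and the stated purpose was to learn how more of it affects steatohepatitis. All 8 mice carry at least 1 minus allele of Sost. The labels say neither what PB stands for nor which group overexpresses Sost, and they give no age, sex, driver or time on the diet.

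Caveolae are small pits of the plasma membrane, dense in endothelial cells, smooth muscle, fibroblasts and adipocytes, and sparse in hepatocytes. Caveolin-1 oligomers form their coat, and caveolin-2 joins it through caveolin-1. Actin filaments meet the cell membrane at integrin adhesions through talin, grow as branches where N-WASP activates the Arp2/3 complex, are closed at their fast-growing ends by capping protein, and are wound by tropomyosin. In liver, caveolin-1 and tropomyosin-2 are used as signal of sinusoidal endothelium, vessel walls and activated stellate cells, while talin-1, capping protein and N-WASP are made in most cell types.

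Names and counts do not belong together over much of this table, so the place of each gene was checked first. Of protein-coding genes outside the ubiquitous families used to find the stretches, 286 of 533 (53.7%) had a mean of at least 100 counts inside them, against 15.2% elsewhere. When the exons of the rows around a gene were moved along the GRCm38 assembly in steps of 50 bp, the count followed coding sequence best at 0 bp around Cav1, Cav2, Tes and Capza2, with correlations across rows of 0.71 to 0.72. Around Tln1 and Tpm2 the best distance was 8300 bp, with correlations of 0.76 and 0.74 there against 0.55 and 0.55 at 0 bp. Around Wasl it was 18000 bp, with 0.64 there against 0.50 at 0 bp. At those distances 3 of 27 well-counted neighbours of Tln1 and 3 of 26 of Tpm2 would lie on no annotated exon. These were Fam214b, Cd72 and Ccdc107 for both genes. For Wasl it was 2 of 17, Ndufa5 and Impdh1. Most neighbours would still lie on exons, so these counts do not exclude the moved places. Both distances exceed the 1 kb allowed for a whole stretch, and how finely the scan places a single gene was not measured. The names of Tln1, Tpm2 and Wasl are therefore less firmly anchored than the other 4. The tissue label was checked on the same stretches, where Pon1, the paraoxonase that liver secretes, averaged 1746 ± 207 CPM in the Sost-/- livers against 1895 ± 278 CPM (SD, n = 4). CPM are counts per library total scaled by trimmed-mean (TMM) factors. Defining endothelial markers (10 listed, such as Pecam1 and Stab2) and defining stellate and smooth muscle markers (10 listed, such as Acta2 and Des) all lie outside the stretches and are not analysed here. The same holds for the 6 defining hepatocyte markers listed, such as Alb.

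The 4 promoters below are shown because of how these genes varied between livers, as described further on. Cav2 and Wasl are the pair of the 21 whose correlation passed adjustment, Tpm2 had the most negative correlation with Wasl, which did not pass, and Cav1 is the partner of Cav2 in the coat. Each is a RefSeq sequence of GRCm38.p6 reaching from 250 bases before to 50 after the annotated start, written 5′ to 3′ along the gene, with the GC box GGGCGG or its complement CCGCCC in capitals.
Cav2 (chr6:17280935-17281234, plus strand): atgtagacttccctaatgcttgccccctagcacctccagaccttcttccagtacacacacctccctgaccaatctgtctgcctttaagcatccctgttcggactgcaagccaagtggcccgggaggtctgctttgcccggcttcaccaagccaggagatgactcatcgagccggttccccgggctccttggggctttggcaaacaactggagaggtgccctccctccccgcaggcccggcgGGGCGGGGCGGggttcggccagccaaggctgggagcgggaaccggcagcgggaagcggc
Wasl (chr6:24664946-24665245, minus strand): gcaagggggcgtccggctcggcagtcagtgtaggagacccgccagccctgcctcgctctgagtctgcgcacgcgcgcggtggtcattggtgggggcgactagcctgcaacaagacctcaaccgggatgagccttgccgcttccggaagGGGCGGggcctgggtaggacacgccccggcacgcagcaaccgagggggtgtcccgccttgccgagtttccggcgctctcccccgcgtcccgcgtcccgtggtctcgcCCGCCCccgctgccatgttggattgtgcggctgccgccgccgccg
Cav1 (chr6:17306085-17306384, plus strand): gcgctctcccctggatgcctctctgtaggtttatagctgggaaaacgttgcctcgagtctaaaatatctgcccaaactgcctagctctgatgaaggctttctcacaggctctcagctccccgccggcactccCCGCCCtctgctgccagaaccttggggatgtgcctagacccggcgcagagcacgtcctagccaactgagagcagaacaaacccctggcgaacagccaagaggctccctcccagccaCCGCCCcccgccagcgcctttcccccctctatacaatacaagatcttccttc
Tpm2 (chr4:43523505-43523804, minus strand): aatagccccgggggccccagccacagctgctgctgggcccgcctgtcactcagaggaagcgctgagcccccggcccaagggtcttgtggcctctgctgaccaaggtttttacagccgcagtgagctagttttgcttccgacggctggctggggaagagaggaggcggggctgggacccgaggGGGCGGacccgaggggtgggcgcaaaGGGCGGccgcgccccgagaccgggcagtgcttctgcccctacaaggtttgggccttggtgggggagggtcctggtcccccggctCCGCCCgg
All 7 genes matched the RefSeq table. Cav1 has 2 starts there, of which the one at the gene's annotated 5′ end is shown. The GC box, searched on both strands, was found 2 times each in Cav1, Cav2, Wasl and Tes, 3 times in Tpm2, once in Capza2 and not in Tln1, where 35.7% of 32851 promoters hold it at least once. In Cav2 the 2 matches share 1 base. A match is a description of letters, not of binding. The CArG box, bound by serum response factor, was in 0 of the 7 and in 1.63% of all promoters. GGAATG, the core bound by TEAD factors, was also in 0 of the 7 and in 14.7% of all. GC content was 59.3% in Cav1, 64.3% in Cav2, 70.3% in Tpm2 and 72.3% in Wasl, against a median of 52.7%.

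Both caveolin genes had low counts, and neither differed between genotypes beyond the spread of the livers. Cav1, the coat protein of caveolae (ENSMUSG00000007655, chromosome 6, 17306335 to 17341452, GRCm38, plus strand), stood at 11.5, 9.47, 11.8 and 8.26 CPM in replicates 1 to 4 of Sost-/-, in that order, and at 8.75, 10.6, 12.8 and 13.0 CPM in those of SostPB/-. The highest livers were SostPB/- replicates 4 and 3, the lowest was Sost-/- replicate 4, and the groups overlapped. Means were 10.3 ± 1.69 and 11.3 ± 2.02 CPM (SD, n = 4). The log2 fold change of SostPB/- over Sost-/- was 0.14 (SE 0.23, 95% interval -0.36 to 0.64), and edgeR's quasi-likelihood test gave an adjusted p of 0.981. On the linear scale that interval runs from 0.778-fold to 1.56-fold. Behind these values stood 86 to 153 counts per library, for which counting alone gives an error of 9.10% at the mean count, while the observed coefficient of variation over all 8 livers was 16.8%.

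Cav2, the partner caveolin (ENSMUSG00000000058, chromosome 6, 17281185 to 17289115, plus strand), starts upstream of Cav1 on the same strand and ends 17.2 kb before it. Levels were 17.9, 15.6, 10.2 and 11.0 CPM for Sost-/-, then 13.4, 16.9, 15.4 and 13.4 CPM for SostPB/-. An antisense gene across both caveolins, Gm15581, had 0 counts. The 4 SostPB/- livers lay inside the range of Sost-/-, where replicates 1 and 2 were high and replicates 3 and 4 low. Its log2 fold change was 0.11 (SE 0.23, 95% interval -0.40 to 0.63; edgeR adjusted p = 0.981). The ratio of Cav1 to Cav2 was 0.791 ± 0.252 in Sost-/- and 0.771 ± 0.162 in SostPB/- (SD, n = 4), with p = 0.971 in a two-sided exact permutation test. Of the other 10 caveolar genes listed, among them the cavins and Ehd2, only Cavin4 lay on a name-holding stretch, and its mean of 1.5 counts was too low to test.

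**Figure D1:**
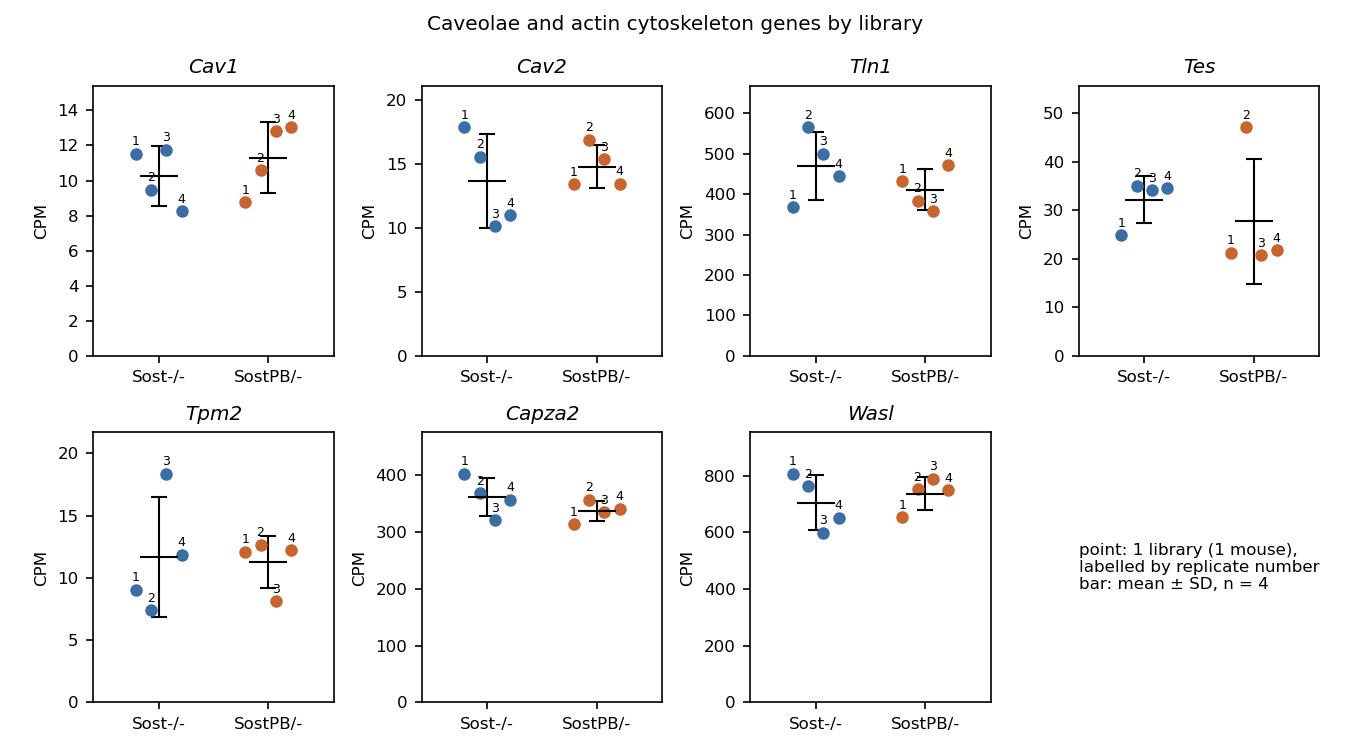
CPM of the 7 genes in each of the 8 livers; points are single libraries with their replicate numbers, and bars are mean ± SD of 4. The groups overlap in each panel, and Tes stands out by SostPB/- replicate 2 at 47.2 CPM above 3 livers at 20.7 to 21.8.

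At adhesions, Tln1 and Tes were lower on average in SostPB/-, by less than the spread. Tln1 encodes talin-1, which links integrins to actin (ENSMUSG00000028465, chromosome 4, 43531519 to 43562691, minus strand). Sost-/- livers read 368, 566, 500.2 and 445 CPM, and SostPB/- livers 433, 384, 358 and 471 CPM. Sost-/- replicates 2 and 3 were above every SostPB/- liver, and replicates 1 and 4 lay among them. The log2 fold change was -0.19 (SE 0.17, 95% interval -0.56 to 0.18; edgeR adjusted p = 0.958), and Tln1 had the smallest unadjusted p of the 7 at 0.279. The 5′ end of Tln1 overlaps that of Creb3 on the other strand. No source used here gives the strand setting of the counting, so reads in that overlap cannot be assigned.

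Tes encodes testin, a LIM-domain protein of focal adhesions and cell contacts (ENSMUSG00000029552, chromosome 6, 17065149 to 17105828, plus strand). Values ran 25.0, 35.1, 34.1 and 34.6 CPM over the Sost-/- livers and 21.3, 47.2, 20.7 and 21.8 CPM over the SostPB/- livers. In SostPB/- 3 livers were below all 4 of Sost-/- and replicate 2 was above all of them. The log2 fold change was -0.21 (SE 0.28, 95% interval -0.84 to 0.42; edgeR adjusted p = 0.975). Without SostPB/- replicate 2 it was -0.60 (SE 0.20), with an unadjusted p of 0.0133 and an edgeR adjusted p of 0.626, so the size of the difference rests on that liver and the call does not. The same liver was high in the transcription factor gene Klf4, at 19.9 CPM against 3.51 to 5.09 CPM in its group.

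Filament genes also overlapped between genotypes. Tpm2 encodes tropomyosin-2, the beta-tropomyosin of muscle, vessel wall and fibroblasts (ENSMUSG00000028464, chromosome 4, 43514711 to 43523765, minus strand), and lies 7.75 kb from Tln1. The 4 Sost-/- livers gave 9.05, 7.39, 18.4 and 11.9 CPM and the 4 SostPB/- livers 12.1, 12.7, 8.14 and 12.2 CPM. Sost-/- replicate 3 was the highest liver and Sost-/- replicate 2 the lowest, a span of 2.49-fold and the widest of the 7 genes. The log2 fold change was -0.05 (SE 0.30, 95% interval -0.71 to 0.62; edgeR adjusted p = 0.994), and 0.26 without Sost-/- replicate 3.

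Capza2, the alpha-2 subunit of capping protein (ENSMUSG00000015733, chromosome 6, 17636234 to 17666972, plus strand), was the steadiest gene. It read 403, 368, 321 and 358 CPM for Sost-/- and 315, 358, 335 and 341 CPM for SostPB/-, a coefficient of variation of 8.12% over the 8 livers against a counting error of 1.59%. The log2 fold change was -0.11 (SE 0.13, 95% interval -0.40 to 0.19; edgeR adjusted p = 0.971). Wasl, which encodes N-WASP (ENSMUSG00000029684, chromosome 6, 24613805 to 24665009, minus strand), was read at 807, 762, 599 and 652 CPM among Sost-/- livers and 654, 753, 789.5 and 748 CPM among SostPB/- livers. Its lowest liver was Sost-/- replicate 3 and its highest Sost-/- replicate 1, so SostPB/- lay within the range of Sost-/-. The log2 fold change was 0.06 (SE 0.15, 95% interval -0.26 to 0.38; edgeR adjusted p = 0.982).

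The ratio of Capza2 to Wasl did not overlap between genotypes. Sost-/- livers gave 0.500, 0.483, 0.537 and 0.548, and SostPB/- livers 0.481, 0.475, 0.424 and 0.456. All SostPB/- livers were below all Sost-/- livers, with 0.483 and 0.481 nearly touching. The exact two-sided permutation test gave p = 0.0286, the smallest that 4 against 4 can give, and 0.0857 after Benjamini-Hochberg adjustment over the 3 ratios computed, so it did not pass. These ratios were chosen after the values of the genes had been seen.

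Of the 7 genes, 0 passed an edgeR adjusted p of 0.05, 0 had an unadjusted p under 0.05, and 0 had groups that did not overlap. Over all 10020 rows tested the shares were 0%, 6.45% and 3.92% (1.74% higher and 2.19% lower in SostPB/-), and over the 460 nuclear name-holding rows 0%, 8.26% and 4.13%. DESeq2 and limma-voom with sample weights also called 0 of the 7. Log2 fold changes were above 0 in 3 and below 0 in 4, where 51.2% of all rows and 52% of name-holding rows lay below 0. Their median was -0.05, beside -0.01 over all rows. With library totals alone the median of all rows moved to -0.21, and Cav1, Cav2 and Wasl, at -0.06, -0.06 and -0.13, went below 0 while staying above that median. The other 4 genes kept their sign under that scaling. The share of mitochondrial counts was 47.4 to 59.2% in Sost-/- and 54.7 to 64.3% in SostPB/-, and with nuclear rows alone 0 of the 7 passed. Intervals reached at most 1.56-fold upward (Cav1) and 0.559-fold downward (Tes), so changes within these bounds are not excluded for those genes. In whole liver, fewer cells of a type and less RNA per cell cannot be told apart. Nothing in the labels says whether the livers were taken on 1 day.

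**Figure D2:**
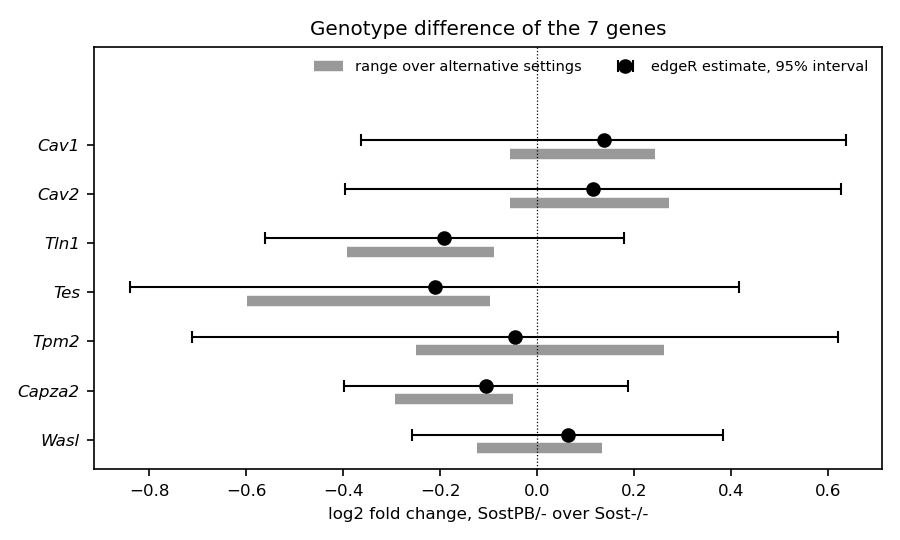
Log2 fold change of SostPB/- over Sost-/- for the 7 genes, with the edgeR estimate and its 95% interval in black and the range over 17 alternative settings in grey. Each interval spans 0, and the range of Tes reaches -0.60 without SostPB/- replicate 2.

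Levels fell into a high and a low set once divided by merged exon length. Over the 8 livers Wasl had 117 ± 12.2 CPM per kb, Capza2 59.4 ± 4.82, Tln1 45.0 ± 7.27, Tes 4.38 ± 1.37, Cav2 4.26 ± 0.813, Tpm2 3.95 ± 1.19 and Cav1 3.13 ± 0.526 (SD, n = 8). Wasl was above Capza2 with ranges apart, and Tln1 was above Tes with ranges apart, at a ratio of means of 10.3. Capza2 was above Tln1 in 8 of 8 livers, although their ranges over livers overlapped. Neighbours among Tes, Cav2, Tpm2 and Cav1 traded places, the higher being above the lower in 4, 4 and 5 of 8 livers. With the longest protein-coding transcript as the length, Wasl and Capza2 overlapped, at 166 ± 17.3 and 138 ± 11.2 CPM per kb, and Tes rose to 11.2 ± 3.49, because its merged exons of 6835 bp are much longer than its longest coding transcript of 2685 bp. Both caveolins, tropomyosin-2 and testin were in the low set, and talin-1, capping protein and N-WASP in the high set, by either length.

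**Figure D3:**
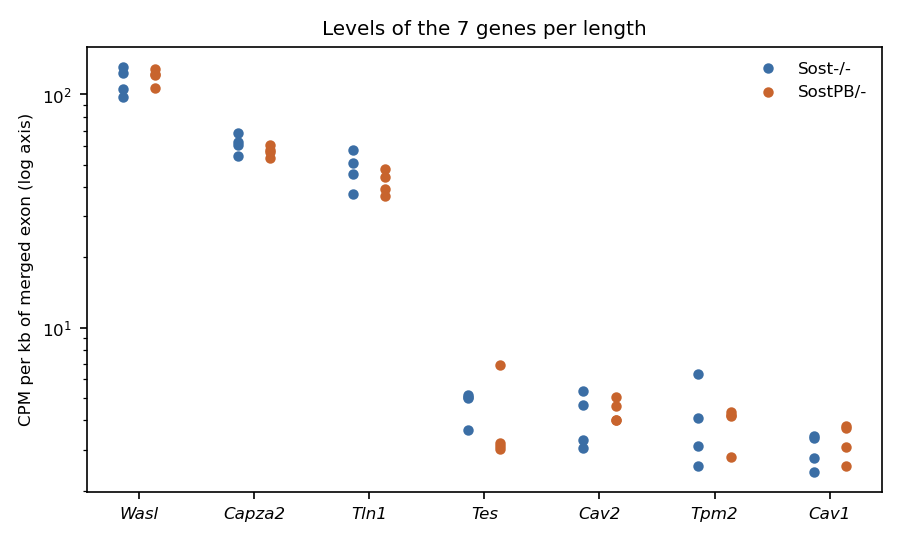
CPM per kb of merged exon on a log axis for each liver, ordered by mean. Wasl, Capza2 and Tln1 form a set from 36.5 CPM per kb upward, and Tes, Cav2, Tpm2 and Cav1 a set at 2.40 to 6.90.

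Variation between livers was compared for each pair of the 7 genes. Of 21 pairs, 10 had a positive Pearson r of log2 CPM over the 8 livers and the median r was -0.01. The same counts over pairs of other rows were not computed, so no background share stands beside them. Cav2 and Wasl were the pair that passed, with r = 0.91 (exact permutation p = 0.00146, adjusted p = 0.0307 over 21 pairs, n = 8) and Spearman rho = 0.90 (exact permutation p = 0.00456, adjusted p = 0.0958, which did not pass). Without the 2 livers farthest from the median of Cav2, r was 0.71. Inside the groups, with group means subtracted, r was 0.90, and with nuclear rows alone 0.90. With library totals as the only scaling it was 0.55 (exact permutation p = 0.162), so the call depends on the scaling. Leaving out 1 library at a time, r lay between 0.83 and 0.94, but the pair passed adjustment in 1 of the 8 cases, without SostPB/- replicate 2. With fewer libraries the call was lost even where r rose, as without SostPB/- replicate 1 (r = 0.94, exact permutation, adjusted p = 0.0708). Both genes lie on chromosome 6, and each library's scaling factor is shared by both. The mitochondrial share of counts moved with both genes over the 8 livers, at a descriptive r of 0.72 for Cav2 and 0.76 for Wasl, next to 0.66 for Cav1, -0.71 for Tln1, -0.46 for Tes, -0.40 for Tpm2 and 0.11 for Capza2. The ratio of counts in short to long genes had r of 0.66 with Tln1, -0.56 with Wasl, -0.51 with Cav1, -0.50 with Cav2, 0.40 with Tpm2, 0.17 with Tes and 0.01 with Capza2. The part of either in these relations was not tested. Rows outside the 7 genes had higher r than the 0.91 of Cav2 with Wasl. These were Mdfic and Gabbr2 to Cav2 (0.97 and 0.94), and Pon3, Cped1 and Tmem106b to Wasl (0.95, 0.93 and 0.92).

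Capza2 had r = 0.60 to Cav2 and 0.64 to Wasl, which did not pass (exact permutation p = 0.114 and 0.0895, adjusted 0.481 and 0.470; rho = 0.64 and 0.55, exact permutation p = 0.0962 and 0.171), and without the 2 farthest livers r was 0.84 and 0.43. With group means subtracted r was 0.87 and 0.88 (permutation, adjusted p = 0.0340 and 0.0333). Those p values are a description, because the permutation of centred values is not exact. Cav1, the partner of Cav2 in the caveolar coat, had r = 0.22 to it (exact permutation p = 0.596, adjusted p = 0.812; rho = 0.12, exact permutation p = 0.793), and -0.30 without the 2 farthest livers. Tpm2 and Wasl had r = -0.79, which did not pass adjustment (exact permutation p = 0.0206, adjusted p = 0.216; rho = -0.67, exact permutation p = 0.0831) and -0.64 without the 2 farthest livers. With library totals alone that r was -0.14 (exact permutation p = 0.743). Neither Tln1 and Tpm2, neighbours on chromosome 4 (r = 0.15, exact permutation p = 0.714; rho = 0.17, exact permutation p = 0.703), nor any other pair passed under the reported scaling without centring. For Tln1 and Tpm2 the value rests on 1 liver: r was 0.77 without the 2 farthest livers and 0.85 without Sost-/- replicate 2 (exact permutation p = 0.0103, adjusted p = 0.0854).

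**Figure D4:**
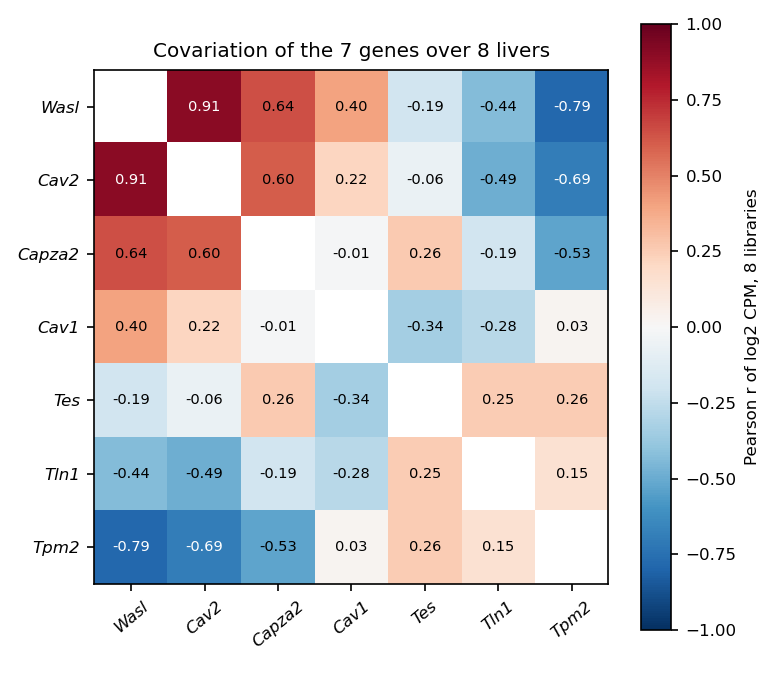
Pearson r of log2 CPM over 8 livers for the 21 pairs, red for positive and blue for negative, with the diagonal left blank. Wasl, Cav2 and Capza2 share positive values, 0.60 to 0.91, and Tpm2 is negative to all 3.

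**Figure D5:**
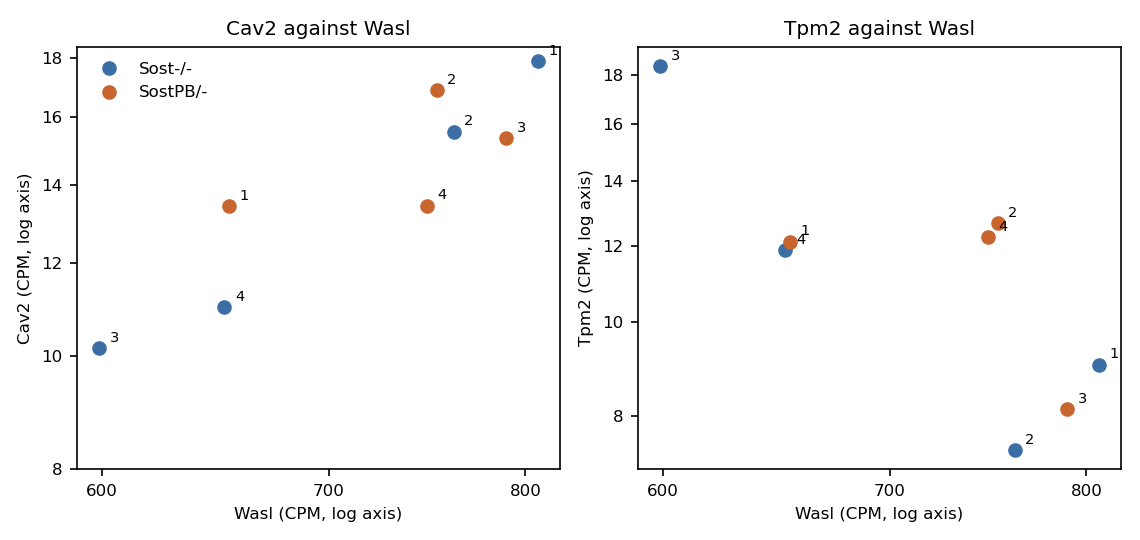
Cav2 (left) and Tpm2 (right) against Wasl in CPM on log axes, 1 point per liver with its replicate number. Sost-/- replicate 3, lowest in Wasl at 599 CPM, is lowest in Cav2 at 10.2 and highest in Tpm2 at 18.4.

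For each gene the 3 most alike of 326 protein-coding rows on the stretches (mean of at least 50 counts, highest r of log2 CPM over 8 livers) are given as a description. Cav2 was most like Mdfic (r = 0.97), Gabbr2, a subunit of the GABA-B receptor (0.94), and Wasl. Wasl was most like the paraoxonase gene Pon3 (0.95), Cped1 (0.93) and Tmem106b (0.92). Capza2 was most like Slc25a13, which encodes the mitochondrial carrier citrin (0.89), Ttpa, the tocopherol transfer protein of hepatocytes (0.85), and Mup2 (0.84). Tpm2 was most like Gng11, a G protein gamma subunit of endothelium (0.88), the thioredoxin gene Txn1 (0.88) and the respiratory chain gene Ndufa4 (0.87). Those 3 have short merged exons, of 919, 1051 and 1381 bp. Cav1 was most like Ccne2 (cyclin E2), Casp8ap2 and Tmem209 (0.81, 0.81 and 0.80), Tln1 like Dap, Nol6 and Kcp (0.83, 0.82 and 0.81), and Tes like Gdf6, Ctnnal1 (alpha-catulin) and 2610001J05Rik (0.87, 0.82 and 0.81). Gng11 itself averaged 9.48 ± 2.33 CPM without and 9.54 ± 2.24 CPM with the PB allele (SD, n = 4), and its edgeR adjusted p was 0.999 at a log2 fold change of 0.01 (SE 0.27).

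Actin, adhesion and traffic genes on the same stretches gave 20 tested of 26 listed, and 0 passed in either direction. Their median log2 fold change was -0.07, with 13 below 0, and their summed level was 3341 to 3703 CPM in Sost-/- and 3222 to 3403 CPM in SostPB/-. Fscn3 and Frmpd1 were at 0. Shb, an adaptor of receptor tyrosine kinases that is also on the endothelial list, averaged 119 ± 17.6 CPM against 76.6 ± 27.2 CPM in SostPB/-, without overlap (SD, n = 4). Its edgeR adjusted p was 0.721, at a log2 fold change of -0.63 (SE 0.25). Its 2 lowest livers were SostPB/- replicates 3 and 4, at 48.5 and 58.2 CPM, and replicates 1 and 2 lay between 98.7 CPM and the lowest Sost-/- value of 107 CPM. Gem, a small GTPase that acts on the cytoskeleton, had 45.6 ± 21.3 and 28.1 ± 4.48 CPM (log2 fold change -0.70, SE 0.29, edgeR adjusted p = 0.748), and Sost-/- replicate 3 alone reached 76.7. Syndecan-2 (Sdc2), a heparan sulfate proteoglycan, and calumenin (Calu) were the most counted, at log2 fold changes of 0.00 (SE 0.19) and -0.16 (SE 0.17). Rusc2 had -0.47 (SE 0.22) and Anp32b 0.05 (SE 0.17).

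Endothelial genes on the stretches, 9 tested of 9, had 0 passing, 6 below 0, a median log2 fold change of -0.06 and a summed level of 875 to 1120 CPM in Sost-/- and 942 to 1069 CPM in SostPB/-. Most of that sum came from Tspan12, a tetraspanin, at 813 ± 110 and 851 ± 95.8 CPM. Thsd7a, a thrombospondin-repeat protein of endothelium, had 10.6 ± 1.36 and 7.40 ± 1.52 CPM (log2 fold change -0.52, SE 0.23, edgeR adjusted p = 0.767), with SostPB/- replicate 3 inside the Sost-/- range. Npr3 and Smo, a gene of the hedgehog pathway, had -0.04 (SE 0.37) and 0.05 (SE 0.29).

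Stromal and matrix genes gave 14 tested of 16, with 0 passing, 12 below 0 and a median of -0.14. Cntfr had 13.5 ± 3.83 and 7.89 ± 2.80 CPM (log2 fold change -0.77, SE 0.30, edgeR adjusted p = 0.728). Type I collagen Col1a2 was at 0.23 (SE 0.23), the natriuretic peptide receptor Npr2 at -0.08 (SE 0.16), Tgfbr1 at -0.15 (SE 0.14) and Tfpi2 at -0.13 (SE 0.15). The summed level was 754 to 929 CPM in Sost-/- and 737 to 864 CPM in SostPB/-. Immune and blood genes, 7 tested of 10, had 0 passing, 5 below 0 and a median log2 fold change of -0.20. Their summed level was 153 to 208 CPM in Sost-/- and 143 to 184 CPM in SostPB/-, with the erythroid gene Hemgn at 0. There Il7r had -0.38 (SE 0.21), Irf5 -0.20 (SE 0.19), Tfec -0.25 (SE 0.21) and Ccl27a 0.29 (SE 0.21). Hepatocyte genes, 13 tested of 13, had 0 passing, 9 above 0, 4 below 0 and a median log2 fold change of 0.02. Paraoxonase 1 (Pon1) had 0.12 (SE 0.15), the urinary protein gene Mup7 -0.19 (SE 0.67), and the lysine-degrading enzyme gene Aass -0.40 (SE 0.14, edgeR adjusted p = 0.687), without overlap between groups. Grhpr, which encodes glyoxylate reductase, had -0.48 (SE 0.19, edgeR adjusted p = 0.721). The bile duct genes Cftr and Cdh17, with means of 10.6 and 11.0 counts, were too low to test.

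Of 8 genes listed as targets of the actin-sensitive factors SRF and YAP, 7 were tested and 0 passed. The tested genes had a median log2 fold change of -0.19, with 5 below 0. Tpm2, Tln1, Tes, Cav1 and Gem among them are described above. Gem, at -0.70 (SE 0.29), was the 1 gene of this list with an unadjusted edgeR p under 0.05, and Rai14 was at 0.02 (SE 0.15). Across all lists, with the 7 genes left out, 62 genes were tested, 0 passed in edgeR, DESeq2 or limma-voom, while 6 (9.68%) reached an unadjusted edgeR p below 0.05, next to 8.26% of name-holding rows. These 6, Shb, Gem, Thsd7a, Cntfr, Aass and Grhpr, all had lower means in SostPB/-, and none passed adjustment. Of the 62 genes, 39 had log2 fold changes below 0. The share of lower means among rows with an unadjusted p under 0.05 was not computed over all rows or name-holding rows. Groups did not overlap in 2 of the 62, Shb and Aass, next to 3.92% of all rows and 4.13% of name-holding rows. The number below an unadjusted p of 0.05 was 2 without Sost-/- replicate 2, 2 with the replicate block, 3 without SostPB/- replicate 3 and likewise without replicate 4, and 9 without SostPB/- replicate 1. The lists were chosen with earlier results of these data known, and whether the marker lists account for any value of the 7 genes was not tested.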

How the data were processed

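Sample titles gave each library's group and replicate number, and sample descriptions gave its column. The authors deposited whole-number counts for 55416 rows, and per the submitters' processing notes the tools were StringTie, HISAT2 and DESeq2 and the build was mm10. The sources used here do not give tool versions, the annotation release, strandedness or how StringTie estimates became whole numbers. Library totals ran from 9578086 to 14932773 counts. A second deposited table, the same counts divided by 1 size factor per library, was not used.

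Positions and exon lengths came from GENCODE M21 (GRCm38) by gene ID. Stretches where names hold were runs of genes of ubiquitous families with a mean of at least 100 counts (assumed detected share 0.95 inside, 0.15 outside, minimum score 5), kept when the best shift of exons onto coding sequence, up to 1.5 Mb each way, lay within 1 kb. Runs on chromosomes 4, 6 and 15 were kept, with 1433 rows.

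The test on counts was that of edgeR 4.0.16 under R 4.3.3 (filterByExpr, TMM, glmQLFit, glmQLFTest, Benjamini-Hochberg over all rows at 0.05). The standard error was the log2 fold change over the square root of F. Alternatives were RLE, library totals, limma 3.58.1 (voom, sample weights), DESeq2 1.42.0, other filters, nuclear rows, a replicate block and leaving out each library. Name-holding rows alone (mitochondrial rows included), the 3 ratios and the sums over short and long genes were added after seeing the data. Scripts were tested on simulated counts. Pairwise correlations used exact permutation of the libraries with scipy 1.17.1. The members and lists were chosen with earlier results of these data known. Named were all 7 genes, per list those with an unadjusted p under 0.05 and the 4 with the highest counts, and the 3 rows most like each gene. Klf4 was named after its values were seen, and 1 listed gene is not reported here. Apart from the numbering as biological replicates, nothing says how the mice were housed or processed, so p values measure the spread between these samples.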

Additional observations from a re-analysis of the deposited data

Results flagged for a closer look

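The gap of 1 library to its nearest neighbour was set against the range of its group of 4, for the 7 genes in both genotypes. Of 14 such sets, 3 stood out, where chance gives about 1 in 20. Tes was high in SostPB/- replicate 2, at 47.2 CPM against 20.7 to 21.8 CPM in the other 3 libraries. Tes was low in Sost-/- replicate 1, at 25.0 CPM against 34.1 to 35.1 CPM. Tpm2 was low in SostPB/- replicate 3, at 8.14 CPM against 12.1 to 12.7 CPM.

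SostPB/- replicate 3 also had the lowest ratio of counts in short to long genes on the name-holding stretches. CPM summed over 56 protein-coding genes with under 2000 bp of merged exon, divided by the sum over 127 genes with at least 6000 bp, was 0.270 there, against 0.344 to 0.427 in the other SostPB/- libraries and 0.389 to 0.446 in Sost-/-. It had the highest mitochondrial share, 64.3%. The part of either in the Tpm2 value was not tested.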

How the results depend on the processing

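No alternative called any of the 7 genes or any of the 62 related genes, over 17 alternatives to the reported fit. Over all rows, the reported fit called 0 of 10020, limma-voom with sample weights 1 of the same rows, DESeq2 53 of 23892 rows, and edgeR without a filter 2 of 23953 rows. Leaving out 1 library gave 0 to 4 calls over all rows, with 4 without Sost-/- replicate 1. With the replicate block 0 rows were called, 0 of the 7 genes passed, Tes was at -0.30 and Tpm2 turned to 0.03. Replicate numbers are not said to mark a shared litter or day. With group means subtracted, libraries with the same number had r from -0.09 to 0.06 over rows, and 1 of 4 Sost-/- libraries correlated best with its own number. The highest r between any 2 libraries of different groups was 0.09. Values this low cannot decide whether the numbers mark a shared litter or day. Of the 21 pairs, 1 passed as reported and 0 with library totals alone, and leaving out 1 library left 0 to 1, with 1 only without SostPB/- replicate 2. With group means subtracted, 3 had an adjusted permutation p under 0.05 (Cav2 with Wasl, Cav2 with Capza2, and Capza2 with Wasl). That count is a description, because the permutation of centred values is not exact. Without 1 library the r of Cav2 and Wasl stayed between 0.83 and 0.94. Low counts limit Cav1, Cav2 and Tpm2 most, where counting alone gives an error of 7.87 to 9.10%. A fit to the name-holding rows alone, chosen after seeing the data, called 0 of 495 rows. It kept the mitochondrial rows.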
